A study of Mus musculus with 8 samples.

Results

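The Toll-like receptor genes of the mouse were examined in a bone marrow population sorted for the surface markers of hematopoietic stem cells (HSCs), from Atg12 conditional knockout and control mice. The sort took lineage-negative, c-Kit+, Sca-1+, Flk2-, CD150+ and CD48- cells. The members were picked by gene symbol, as the 10 genes Tlr1 to Tlr9 and Tlr13. Of these, 9 were listed under their symbol among the 24213 genes of the array table, each by 1 feature, and Tlr5 was not analysed here. The study measured 4 conditional knockout mice (Atg12flox/flox with Mx1-Cre) and 4 control mice (Atg12flox/flox without Cre), all C57BL/6, with 1 array per mouse per the series' design. Mx1-Cre is a recombinase transgene driven by an interferon-inducible promoter. Every mouse of both groups was given poly(I:C), a synthetic RNA duplex, when 4 weeks old. Cells were collected 2 to 3 months after that, from mice aged 3 to 4 months. Because the control mice lacked Cre, an effect of Cre and one of Atg12 loss cannot be told apart. The values are log2 RMA signals, a scale on which a difference of 1 is a doubling of signal.

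Toll-like receptors are membrane proteins that recognise molecules of microbes and of damaged cells through an outer domain of leucine-rich repeats and signal through an inner TIR domain. Surface receptors bind mainly lipids and proteins: Tlr2 pairs with Tlr1 or Tlr6 to bind bacterial lipopeptides, Tlr4 binds lipopolysaccharide and Tlr5 binds flagellin. Endosomal receptors bind nucleic acids: Tlr3 double-stranded RNA such as poly(I:C), Tlr7 and Tlr8 single-stranded RNA, Tlr9 DNA with unmethylated CpG, and mouse Tlr13 bacterial ribosomal RNA. Tlr3 signals through the adaptor Ticam1 (TRIF), Tlr4 through both Myd88 and Ticam1, and the others through Myd88. Blood stem and progenitor cells are known to carry some of these receptors, and autophagy is known to deliver ligands to endosomal ones.

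The 250 bases before the start of 3 of these genes are shown, 5′ to 3′, from RefSeq (build GRCm38.p6), which held windows for 8 of the 10 genes. Tlr4 and Tlr7 had no entry. Tlr2 is shown as the gene whose groups did not overlap, Tlr9 as the endosomal receptor read above the level of absent transcripts, and Tlr8 as the gene of smallest p among the 9, which read below that level. Capitals mark matches on either strand to 4 motifs: the NF-kB type (GGG and CC with any 5 bases between), GAGGAA (a core bound by ETS factors such as PU.1), the IRF type (GAAA and GAAA with any 2 bases between) and GGGCGG (the Sp1 box).
Tlr2, chr3:83841609-83841858, minus strand: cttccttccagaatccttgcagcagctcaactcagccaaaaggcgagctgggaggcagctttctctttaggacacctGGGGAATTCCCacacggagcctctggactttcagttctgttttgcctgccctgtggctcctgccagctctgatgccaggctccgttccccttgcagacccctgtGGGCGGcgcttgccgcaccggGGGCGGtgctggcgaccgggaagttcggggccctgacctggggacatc
Tlr9, chr9:106222348-106222597, plus strand: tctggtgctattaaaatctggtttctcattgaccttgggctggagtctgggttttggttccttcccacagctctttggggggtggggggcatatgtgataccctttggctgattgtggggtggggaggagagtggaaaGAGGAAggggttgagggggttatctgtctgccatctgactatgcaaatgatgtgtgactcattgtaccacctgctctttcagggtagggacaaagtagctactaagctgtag
Tlr8, chrX:167264330-167264579, minus strand: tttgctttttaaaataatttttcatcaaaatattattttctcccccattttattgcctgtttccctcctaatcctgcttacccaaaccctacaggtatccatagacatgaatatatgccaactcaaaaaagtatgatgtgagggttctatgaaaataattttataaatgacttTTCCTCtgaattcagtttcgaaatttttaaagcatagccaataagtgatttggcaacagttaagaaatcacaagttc
The Tlr2 window was rich in G and C (62.8%, against a median of 52.4% over 32851 windows of the same length) and held 11 CpG dinucleotides. Its 3 matches to the NF-kB type overlap in a single run, and it held 2 matches to GGGCGG. The Tlr9 window (50.4% G and C, 0 CpG) and the Tlr8 window (31.2% G and C, 1 CpG) each held 1 match to GAGGAA and none to the other motifs. Among all windows, 45.8% held the NF-kB type, 32.7% GGGCGG, 23.3% GAGGAA and 2.98% the IRF type. These matches are descriptions of the letters and were not set against binding data.

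The targeted gene was read first. Atg12 signal was 5.66, 5.45, 5.35 and 5.56 on the conditional knockout arrays, against 6.41, 6.37, 6.55 and 6.42 on the control arrays. It was the 1 gene of 24213 past the threshold, an adjusted p under 0.05 (limma with Benjamini-Hochberg adjustment over all genes, adjusted p = 0.031), and fell by 0.93 (SE 0.10). A level of absent transcripts was set at 3.20, the highest of 16 readings of Xist and 4 Y-linked genes on arrays that lack them. Probe sets differ in brightness from gene to gene, so this level is a rough one. Apart from being set against this level, signals were not compared between genes. The markers of the sort named in the labels were mixed. Kit, required by the sort, lay above that level on all 8 arrays, at a mean of 8.44 in conditional knockout and 8.56 in control samples. Ly6a, a gene of the required Sca-1, was also above it on all 8, at 4.66 in conditional knockout and 4.01 in control samples, a log2 difference of 0.65 (SE 0.20, limma adjusted p = 0.991). Slamf1 (CD150), also required, lay below 3.20 on all 8 arrays, while Cd48 and Flt3 (Flk2), excluded by the sort, lay above it on all 8, with Cd48 at a mean of 8.59 in conditional knockout and 8.63 in control samples. Of 10 HSC marker genes 6 had a mean above the level, as did 8 of 10 monocyte and macrophage genes. Of all 24213 genes, 14697 had a mean above it. Knockout 3 stood apart on the first principal component (39.5, against -14.8 to 12.2 for the other 7 arrays). Xist signal was present on knockouts 1, 2 and 4 and on control 4, and Y-linked signal on knockouts 3 and 4 and on controls 1, 2 and 3. Knockout 4 thus carried both, which 1 mouse would not ordinarily give, and whether that sample was mixed was not tested. It is counted below among the arrays with Xist signal and left out of both subsets by sex-linked signal.

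Among the receptors, 5 of the 9 measured genes read above the level of absent transcripts on all 8 arrays. These were the 4 surface receptors Tlr1, Tlr2, Tlr4 and Tlr6, and the endosomal Tlr9. Of all 24213 genes, 13195 read above that level on all 8 arrays. The other endosomal receptors Tlr7, Tlr8 and Tlr13 were below it on every array, and Tlr3 was above it on 0 of 4 conditional knockout and 2 of 4 control arrays. A second level, the 95th percentile of 1170 olfactory receptor genes (3.29), gave the same count of 5. No receptor passed the test between the groups (0 of 9 at adjusted p under 0.05, limma), where 0.00413% of all genes did. At an unadjusted p under 0.05, 3 of 9 did (Tlr2, Tlr4 and Tlr8, the last on signals below the level on every array), beside 4.94% of all genes.

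**Figure D1:**
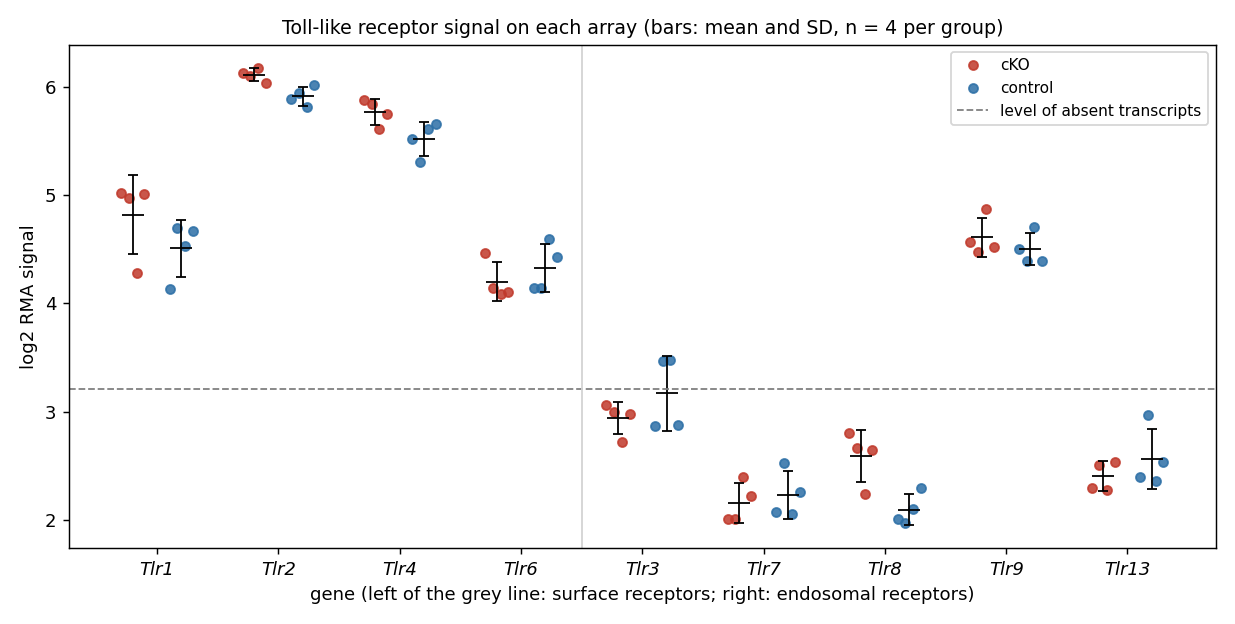
Signal of the 9 measured Toll-like receptor genes on each array (y axis, log2 RMA signal), with conditional knockout (cKO) points left of control points, bars for the mean and SD of 4 arrays, and a dashed line at the level of absent transcripts (3.20). Tlr1, Tlr2, Tlr4, Tlr6 and Tlr9 lie above the line on all 8 arrays, and Tlr7, Tlr8 and Tlr13 below it.

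Tlr2, the shared partner of the lipopeptide receptors, read 6.13, 6.10, 6.18 and 6.04 on the conditional knockout arrays, against 5.89, 5.94, 5.81 and 6.02 on the control arrays. All 4 conditional knockout arrays lay above all 4 control arrays, the nearest pair being knockout 4 and control 4. The means were 6.11 ± 0.06 in conditional knockout and 5.92 ± 0.09 in control samples (SD, n = 4 arrays each), a log2 difference of 0.20 (SE 0.09, 95% confidence interval 0.003 to 0.39) or 1.15-fold. It was 0.096 among arrays with Xist and no Y-linked signal (2 conditional knockout, 1 control) and 0.30 among arrays with Y-linked and no Xist signal (1 conditional knockout, 3 control). Each subset holds a lone array of one genotype. The difference did not pass over all genes (limma adjusted p = 1.00). The two-sided exact permutation p was 0.0286, the smallest that the 70 assignments of 8 arrays allow. Tlr2 was the 1 of 9 receptors whose groups did not overlap. Among all genes, 1.36% had every conditional knockout array above every control array, and 2.90% had groups that did not overlap in either direction.

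Tlr4, the lipopolysaccharide receptor, read 5.88, 5.85, 5.61 and 5.75 on the conditional knockout arrays, against 5.52, 5.30, 5.61 and 5.66 on the control arrays. Knockouts 1, 2 and 4 lay above every control array, and knockout 3 lay among them. The log2 difference was 0.25 (SE 0.11, 95% confidence interval 0.01 to 0.49, limma adjusted p = 1.00, two-sided exact permutation p = 0.0571). The order also followed Xist: the 4 arrays with Xist signal, at 5.66 to 5.88, lay above the 4 without it, at 5.30 to 5.61. With Xist signal as a covariate the log2 difference was 0.15, which is over 1.5 times smaller, and without knockout 4 it was 0.26. It was 0.20 among arrays with Xist and no Y-linked signal and 0.13 among arrays with Y-linked and no Xist signal.

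Tlr1, the partner of Tlr2 for triacylated lipopeptides, read 5.02, 4.98, 4.28 and 5.01 on the conditional knockout arrays, against 4.13, 4.70, 4.54 and 4.67 on the control arrays. Knockouts 1, 2 and 4 again lay above every control array, while knockout 3 lay below 3 of the 4. The log2 difference was 0.31 (SE 0.18, 95% confidence interval -0.10 to 0.72, limma adjusted p = 1.00, exact permutation p = 0.20). Omission of knockout 3 gave 0.49, omission of control 1 gave 0.19, and adding Xist signal to the fit gave 0.09. It was 0.33 among arrays with Xist and no Y-linked signal and -0.18 among arrays with Y-linked and no Xist signal, where knockout 3 is the lone conditional knockout array. The other Tlr2 partner, Tlr6, which takes diacylated lipopeptides, differed the other way in value. It read 4.47, 4.15, 4.09 and 4.10 on the conditional knockout arrays, against 4.14, 4.14, 4.59 and 4.43 on the control arrays. Knockout 1 stood above the other conditional knockout arrays and among the controls. Its log2 difference was -0.13 (SE 0.13, 95% confidence interval -0.42 to 0.17, limma adjusted p = 1.00). Tlr1 and Tlr6 are neighbouring genes of similar sequence in the RefSeq annotation, and whether probes of one bind transcripts of the other was not tested.

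**Figure D2:**
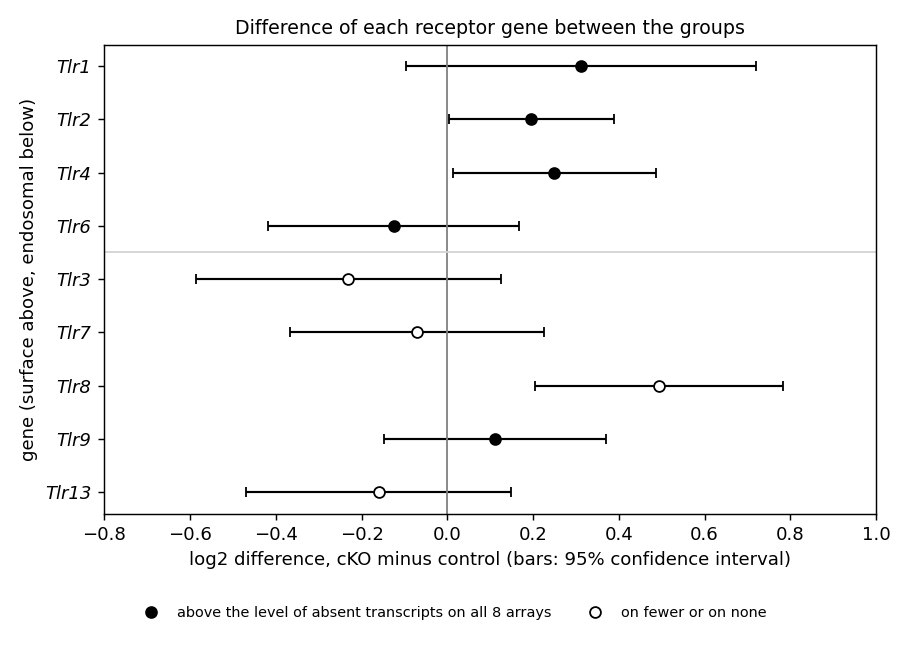
Log2 difference of each receptor gene, conditional knockout (cKO) minus control, with the 95% confidence interval of the limma fit. Filled points mark genes above the level of absent transcripts on all 8 arrays; Tlr2 (0.20) and Tlr4 (0.25) are the filled points whose unadjusted intervals exclude 0.

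Tlr9, the endosomal receptor for CpG DNA, read 4.57, 4.48, 4.88 and 4.52 on the conditional knockout arrays, against 4.50, 4.39, 4.71 and 4.40 on the control arrays. The groups overlapped, and the outlying knockout 3 was the highest of all 8. Its log2 difference was 0.11 (SE 0.12, 95% confidence interval -0.15 to 0.37, limma adjusted p = 1.00), and 0.022 without knockout 3. Tlr3, the receptor of poly(I:C), read 3.06, 3.00, 2.72 and 2.98 on the conditional knockout arrays, against 2.87, 3.46, 3.47 and 2.88 on the control arrays. Controls 2 and 3 were the arrays on which it exceeded the level of absent transcripts. Every conditional knockout array lay below that level, so no difference of Tlr3 can be read as one of the transcript. Its log2 difference was -0.23 (SE 0.16, limma adjusted p = 1.00), with 0.15 among arrays with Xist and no Y-linked signal and -0.55 among arrays with Y-linked and no Xist signal.

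Tlr8, an X-linked receptor next to Tlr7, had the smallest p of the 9, on signals that were all below the level of absent transcripts, where no difference can be read as one of the transcript. It read 2.80, 2.66, 2.24 and 2.64 on the conditional knockout arrays, against 2.01, 1.97, 2.10 and 2.29 on the control arrays. Control 4 lay above knockout 3, so the groups overlapped by that pair. The log2 difference was 0.49 (SE 0.13, 95% confidence interval 0.20 to 0.78, limma adjusted p = 0.88, exact permutation p = 0.0571). As for Tlr4, the order followed Xist, with the 4 arrays that had Xist signal at 2.29 to 2.80 and the 4 without it at 1.97 to 2.24. The fitted value was 0.32 with Xist signal as a covariate, 0.47 without knockout 4, 0.44 among arrays with Xist and no Y-linked signal, and 0.21 among arrays with Y-linked and no Xist signal. Tlr4 and Tlr8 were the 2 of 9 receptors for which all arrays with Xist lay above all arrays without it, and 0 of 9 had the opposite order. Among all genes, 2.92% showed this order and 2.44% the opposite one. Sex was not given in the labels, and its part in these differences was not tested.

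**Figure D3:**
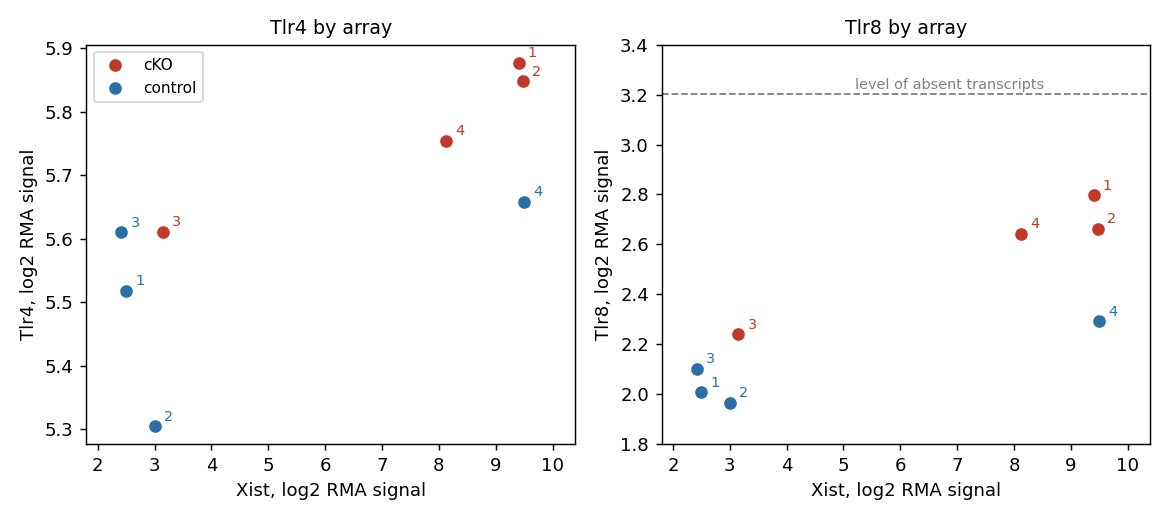
Signal of Tlr4 (left panel) and Tlr8 (right panel) on the y axis against Xist signal on the x axis, both log2 RMA signals, for each array, labelled by replicate number and coloured by group (cKO, control). In both panels the 4 arrays with high Xist (knockouts 1, 2 and 4 and control 4) lie above the 4 with low Xist, and every Tlr8 value lies below the dashed level of absent transcripts (3.20).

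The other X-linked receptors did not share that order. Tlr7 read 2.00 to 2.39 on the conditional knockout arrays, against 2.05 to 2.53 on the control arrays, with a log2 difference of -0.07 (SE 0.13). That value was 0.030 without control 2, -0.25 among arrays with Xist and no Y-linked signal, and 0.18 among arrays with Y-linked and no Xist signal. Tlr13 read 2.28 to 2.54 on the conditional knockout arrays, against 2.36 to 2.97 on the control arrays, with a log2 difference of -0.16 (SE 0.14). Both groups of each gene overlapped, and at these signals, as at those of Tlr8, no difference can be read in either direction.

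Surface receptors and endosomal receptors were then set side by side. The median log2 difference was 0.22 over the 4 surface genes, with 3 above 0, and -0.07 over the 5 endosomal genes, with 2 above 0. Over all 24213 genes the median was 0.002, with 50.6% above 0. The mean surface signal was 5.37, 5.27, 5.04 and 5.23 on the conditional knockout arrays, against 4.92, 5.02, 5.14 and 5.19 on the control arrays. Knockout 3 lay among the controls and the other 3 conditional knockout arrays above them. The mean endosomal signal was 2.90 to 2.98 on the conditional knockout arrays, against 2.77 to 3.06 on the control arrays. The endosomal median is the value of Tlr7, which was below the level of absent transcripts on every array, so no difference between the compartments can be read from the medians. Only Tlr9 of the endosomal genes was above that level on all arrays, at a log2 difference of 0.11.

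Pairs of the detected receptors were also compared over the arrays, and whether their correlations differ from each other was not tested. Over 8 arrays that share a normalization, Pearson r between pairs of the 5 detected receptors lay between -0.40 (Tlr1 with Tlr9) and 0.59 (Tlr1 with Tlr4), as a description. Of the 14696 other genes with a mean above the level, the one of highest r was Fam98b for Tlr1 (0.979), Polr2h for Tlr2 (0.980), Kcnk6 for Tlr4 (0.959), Nsdhl for Tlr6 (0.974) and Dbn1 for Tlr9 (0.983). With 8 arrays and that many candidates, 11 to 79 genes per receptor exceeded an r of 0.9.

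Partners of the surface receptors were mostly detected. Of 6 co-receptor genes 0 passed the test. Cd14, which hands lipopolysaccharide to Tlr4, read 5.85, 5.75, 5.69 and 6.02 on the conditional knockout arrays, against 5.95, 5.51, 5.82 and 5.23 on the control arrays, with a log2 difference of 0.20 (SE 0.15). Ly96 (MD-2), the Tlr4 subunit that holds the lipid, differed by -0.25 (SE 0.21). Cd180, a Toll-like receptor relative, and its partner Ly86 (MD-1) differed by -0.08 and 0.19. Lbp, which carries lipopolysaccharide to Cd14, differed by 0.03, and the scavenger receptor Cd36 was below the level of absent transcripts on all arrays.

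Chaperones that fold and move the receptors were all above that level on every array, and 0 of 5 passed the test. Unc93b1, which carries nucleic acid receptors to endosomes, read 8.25, 8.04, 8.02 and 8.32 on the conditional knockout arrays, against 7.93, 7.92, 7.79 and 8.15 on the control arrays. Control 4 lay above knockouts 2 and 3, and the log2 difference was 0.21 (SE 0.11, limma adjusted p = 1.00). Hsp90b1 (gp96) and Cnpy3, the general folding pair, differed by 0.11 and 0.06, the endolysosomal transporter Slc15a4 by -0.05 and the adaptor complex subunit Ap3b1 by 0.02. Among 5 endosomal proteases that trim receptors 0 passed, with Ctsb at 0.18 (SE 0.13), and Ctsk was below the level of absent transcripts.

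Among 6 adaptors 0 passed the test. Myd88, the adaptor of all members but Tlr3, read 6.18, 6.24, 6.49 and 6.23 on the conditional knockout arrays, against 5.80, 6.12, 6.06 and 6.09 on the control arrays. Every conditional knockout array lay above every control array, with a log2 difference of 0.27 (SE 0.11, limma adjusted p = 1.00). Tirap, which bridges Tlr2 and Tlr4 to Myd88, read 4.76, 4.63, 4.54 and 4.79 on the conditional knockout arrays, against 4.89, 4.92, 4.73 and 5.08 on the control arrays, with a log2 difference of -0.22 (SE 0.10). Control 3 lay below knockouts 1 and 4. Ticam1, the Tlr3 adaptor, differed by 0.01, Ticam2, which bridges Tlr4 to it, by -0.04, and Pik3ap1 by 0.09, and Sarm1 was below the level of absent transcripts.

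Downstream, 0 of 17 kinases and ubiquitin ligases, 0 of 6 transcription factors and 0 of 8 inhibitors passed the test, with medians of -0.009, -0.030 and -0.049. The kinase genes Irak4, which starts the Myd88 signal, and Tbk1, which acts after Ticam1, differed by 0.21 (SE 0.10) and -0.10 (SE 0.09). Rela, an NF-kB subunit, differed by -0.10 and Irf7 by -0.08. The inhibitors Irak3 and Il1rl1 differed by -0.19 (SE 0.11) and -0.38 (SE 0.21).

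Of 15 genes that the pathway induces 0 passed, with a median of 0.04 and 10 above 0. The median is the value of Ifnb1, which was below the level of absent transcripts on every array, so no shift can be read from it. The 10 above 0 include Ifnb1 and Il1b, and 10 of the 15 genes were above that level on all 8 arrays. Cxcl10, a chemokine induced by interferon and by Tlr3 and Tlr4 signals, read 4.12, 5.04, 5.94 and 5.42 on the conditional knockout arrays, against 3.53, 4.06, 3.74 and 4.03 on the control arrays. The groups did not overlap, by a narrow margin between knockout 1 and control 2, and the log2 difference was 1.29 (SE 0.31, limma adjusted p = 0.88). Ccl3, an inflammatory chemokine, differed by -0.34 (SE 0.19), and Il1b, Il6 and Ifnb1 were below the level of absent transcripts on all arrays. Of 9 cytosolic RNA and DNA sensors, which detect nucleic acids without Toll-like receptors, 0 passed and 9 were above that level on every array. Zbp1 differed by 0.39 (SE 0.16) and Dhx58 by 0.28 (SE 0.14). Over the 79 pathway genes outside the members, the median log2 difference was 0.02 and 2 (Myd88 and Cxcl10) had groups that did not overlap, where 2.90% of all genes did, a share near that of the pathway genes.

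**Figure D4:**
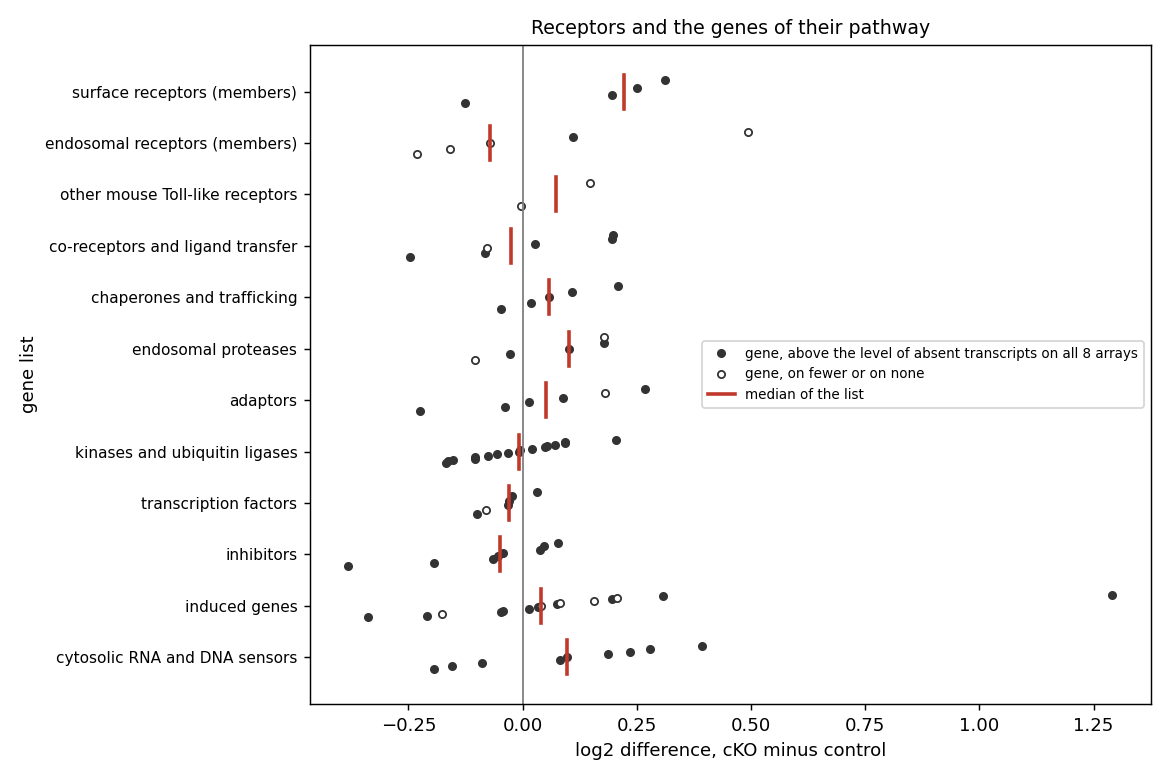
Log2 difference, conditional knockout minus control, of each gene in the receptor lists and 10 other lists of the pathway (points), with the median of each list as a red line. Open points mark genes that failed to exceed the 3.20 level on at least 1 array; Cxcl10 (1.29) lies farthest to the right, and most others lie near 0.

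Monocyte and macrophage genes and neutrophil genes, which mark cells rich in Tlr2 and Tlr4, were also read. The mean over 10 monocyte and macrophage genes was 5.83 to 5.94 on the conditional knockout arrays, against 5.73 to 5.96 on the control arrays, and the list differed by a median of 0.08 with 7 of 10 above 0. Within it, Ccr2, a chemokine receptor of monocytes, had the highest value, at 0.37 (SE 0.12, limma adjusted p = 0.991). The 3 genes below 0 were Emr1 at -0.34 (SE 0.20), Cd68 at -0.16 (SE 0.10) and Lyz2 at -0.009 (SE 0.11). The mean over 8 neutrophil genes was 5.55 to 5.94 on the conditional knockout arrays, against 5.66 to 6.41 on the control arrays, and that list differed by a median of -0.30 with 6 of 8 below 0. Lcn2, a neutrophil granule protein, was the 1 of these 8 whose groups did not overlap, at 0.66 (SE 0.17, limma adjusted p = 0.88). Its direction was opposite to that of 6 of the 8, and 2.90% of all genes had groups that did not overlap. The part of these marker genes in the receptor values was not tested, and in sorted bulk samples more cells of a type and more RNA per cell cannot be told apart. Plasmacytoid dendritic cell genes, which mark cells rich in Tlr7 and Tlr9, had a mean above the level for 2 of 6, beside 14697 of all 24213 genes. Siglech, Ccr9 and Spib were below it on every array. Of the 2 genes above it, Bst2 read 7.87 to 7.99 on the conditional knockout arrays, against 7.70 to 7.83 on the control arrays, without overlap. Its log2 difference was 0.17 (SE 0.08) and did not pass the test. Ly6d, the other, differed by -0.03 (SE 0.13). Of the 6 genes, 3 differed above 0 and 3 below. The mean over the 6 genes was 3.61 to 3.95 on the conditional knockout arrays, against 3.67 to 3.83 on the control arrays. Among 7 B cell genes, the other cells rich in Tlr9, 3 had a mean above the level, beside 14697 of all 24213 genes. The mean over the 7 genes was 3.50 to 3.58 on the conditional knockout arrays, against 3.61 to 3.78 on the control arrays. The list differed by a median of -0.12 with 6 of 7 below 0. Of these 7, Cd79a had every conditional knockout array below every control array, on signals below the level of absent transcripts. Among those above that level on every array, Vpreb1 differed by -0.45 (SE 0.19) and Cd79b, the 1 gene above 0, by 0.12 (SE 0.10).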

How the data were processed

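Amplified RNA of sorted cells, labelled as from 8 mice, was read on Affymetrix Gene ST arrays, as the labels' protocols state. The deposited values were log2 signals, made by RMA per the submitters' processing notes, which give no version. The genome build was not given in the sources used here, and both deposited tables held the same values. Of 28853 features, 1494 had no symbol and were left out; the feature of highest mean was kept for each of 24213 symbols. Quantile normalization in RMA hides shifts shared by most genes. Arrays hold no read depth, and 4 per group limit the precision.

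The groups were compared by lmFit and eBayes of limma 3.58.1 under R 4.3.3 on all genes, without covariates or filter, with Benjamini-Hochberg adjustment; single receptors also had a two-sided exact permutation test over 70 assignments (scipy 1.17.1). The fit was tested on simulated data. Members and lists were chosen with earlier results of these data known. Named genes were the members, Atg12, every measured gene of the 4 lists of other receptors, co-receptors, chaperones and adaptors, the 2 genes of smallest p in the other pathway lists, and the 1 gene most correlated with each detected receptor. Marker genes (Ccr2 and Lcn2 among them), Il1b, Il6 and Ifnb1 were named after their values were seen. Other settings were a block for replicate number, leaving out single arrays, other feature choices, a signal filter, other normalizations, variants of the limma fit, and Xist or Y-linked signal as a covariate; subsets of arrays by sex-linked signal and omission of knockouts 3 and 4 together were chosen after seeing the data.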

Additional observations from a re-analysis of the deposited data

Results flagged for a closer look

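In 5 of 82 groups of 4 arrays, over 41 named genes, the lowest or highest array stood apart from the other 3 by Dixon's criterion, which chance flags in about 1 in 20 groups. For Tlr1, knockout 3 read 4.28, below the other conditional knockout arrays at 4.98 to 5.02; the same array stood apart on the first principal component. For Tlr6, knockout 1 read 4.47, above the others at 4.09 to 4.15. Knockout 1 was also the low array for Ccl3 (7.69, against 8.45 to 8.60), Il1rl1 (3.25, against 3.64 to 3.72) and Irf7 (3.17, against 3.54 to 3.57).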

How the results depend on the processing

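No receptor passed an adjusted p of 0.05 under any of 23 alternatives (203 values, lowest adjusted p 0.427, for Tlr8 with array weights), and 4 of those values changed sign: Tlr7 was 0.030 without control 2 and 0.18 among arrays with Y-linked and no Xist signal, Tlr1 was -0.18 among those arrays, and Tlr3 was 0.15 among arrays with Xist and no Y-linked signal. The causes were not tested. Some alternatives could not change the sign of a receptor's difference. Each measured receptor had 1 feature and both deposited tables held the same values, so the feature choices and the second table repeated the main difference. The replicate block, the signal filter and the variants of the limma fit other than array weights also left each difference as it was. Leaving out 1 array gave 0.19 to 0.49 for Tlr1, 0.16 to 0.23 for Tlr2, 0.18 to 0.30 for Tlr4, 0.42 to 0.61 for Tlr8, 0.022 to 0.18 for Tlr9, -0.21 to -0.036 for Tlr6, -0.33 to -0.13 for Tlr3, -0.15 to 0.030 for Tlr7 and -0.23 to -0.025 for Tlr13. The surface median was 0.19 to 0.26 and the endosomal median -0.13 to 0.030 without 1 array, with gaps of 0.16 to 0.36 (0.29 with all arrays); among arrays with Y-linked and no Xist signal they were -0.023 and 0.18, a gap (surface minus endosomal) of -0.20, and among arrays with Xist and no Y-linked signal the gap was 0.023. The genes called over the whole table numbered 1 with all arrays and 0 to 3 without 1 array (3 without control 4). They numbered 0 with the replicate block (limma; 1205 genes at an unadjusted p under 0.05), 0 with arrays centred on their median (1086), 0 with Xist (2051) or Y-linked (1308) signal as a covariate, 0 in each subset by sex-linked signal (866 with Xist alone, 3158 with Y-linked alone) and 0 without knockouts 3 and 4 (1312). Same-numbered samples did not deviate together (r -0.10 to 0.12 over genes), so the numbers are not taken as pairs, and the replicate block changed no receptor's call. Tlr3, Tlr7, Tlr8 and Tlr13 fell below the filter at the median signal and had no value there.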

Other observations

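Tlr11 and Tlr12, the mouse receptors for the parasite protein profilin, lie outside the members. Tlr11 read 1.75 to 1.98 on the conditional knockout arrays, against 1.64 to 2.16 on the control arrays, all below the level of absent transcripts. Tlr12 read 3.05 to 3.57 on the conditional knockout arrays, against 2.94 to 3.22 on the control arrays, and exceeded the level on 2 conditional knockout arrays and 1 control array.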
